A study of Arabidopsis thaliana with 8 samples.

Results

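The 2 microarrays of se-1 shoot apices were compared directly with the 2 microarrays of ago1-27 shoot apices, 4 of the 8 arrays of a study of Arabidopsis thaliana. The arrays were chosen by their genotype labels alone. se-1 is a weak allele of SERRATE (SE) and ago1-27 is a weak allele of ARGONAUTE1 (AGO1). The other 4 arrays, 2 each, held se-1 p35S::MIR156, which is se-1 with a miR156 precursor driven by the viral 35S promoter, and the wild type Col-0. They entered the fit as further estimates of the spread, and their signals are given as levels with no test. All plants were 20 days old, had been grown in short days and were sampled as vegetative apices. Each genotype was a line with a single allele, and the labels do not say how many plants were pooled or whether replicates came from separate plants. The p-values therefore measure only the spread between these samples, which may be technical.

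Plant microRNAs are cut from hairpin precursors in the nucleus by the endonuclease DCL1, helped by the double-stranded RNA-binding protein HYL1 and by SE, a zinc-finger protein. The mature microRNA is then loaded into AGO1, which cuts target transcripts or represses their translation. Both proteins have other roles as well, since SE acts in pre-mRNA splicing and AGO1 also carries other small RNAs. Comparing the 2 mutants asks where the transcripts of plants weakened at the one step and at the other differ. No file read here held small RNA levels, and no sequences of microRNAs or probes were used here.

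Values are probe set signals on the authors' linear scale. Changes are se-1 minus ago1-27 differences of log2(signal + 16), each with the standard error (SE of the fit) from limma, and a probe set is called at a Benjamini-Hochberg adjusted p under 0.05. The 15922 brighter probe sets of 22746 were tested. Control probe sets for bacterial transcripts, with no counterpart in the plant, reached 18.0 and 30.2 on the se-1 arrays, against 22.0 and 34.1 on the ago1-27 arrays, and signals up to the highest of them are called within background. Over all probe sets, which are not independent of each other, the correlation between replicate arrays was 0.974 in se-1 and 0.967 in ago1-27. The actin 3'/5' signal ratio, a sign of RNA integrity and labelling, was 2.97 and 4.22 on the se-1 arrays and 4.83 and 4.40 on the ago1-27 arrays, so the groups did not overlap. Its part in the differences was not tested. Of the meristem markers listed, CLV3 has a probe set and was among the dim ones left out, as were the pollen markers MGH3 and AT5G45880, so the labelled tissue was not checked by a meristem gene.

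The 2 mutants differed at 537 probe sets, 3.37% of those tested. Of these, 348 were higher in se-1 (2.19%) and 189 were lower (1.19%), and 304 differed by at least 2-fold. Arrays of the 2 genotypes did not overlap at 6896 probe sets (43.3%), which include all 537 called. Of the 15922 tested, 2508 had an unadjusted p under 0.05, the background for counts at that threshold in the lists below. The number called was 265 when se-1 replicate 1 was left out and 257 when se-1 replicate 2 was. It was 342 when ago1-27 replicate 2 was left out and 538 when ago1-27 replicate 1 was. In the same fit, 173 probe sets (1.09%) were called between se-1 and Col-0 and 265 (1.66%) between ago1-27 and Col-0. These comparisons share arrays with each other and with the direct one, so their counts are not independent. Of the 537, 257 are paired with 1 gene in the annotation, and the rest have no listed gene or several. With 1 probe set per gene, 255 of 8731 genes were called (2.92%), 163 higher in se-1 (1.87%) and 92 lower (1.05%), around a median log2 change of -0.01. Of the 8731 genes, 48.3% had a log2 change above 0. The gene lists below were chosen with earlier results of these data known, so shares of a list set beside those of all genes are descriptive.

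**Figure D1:**
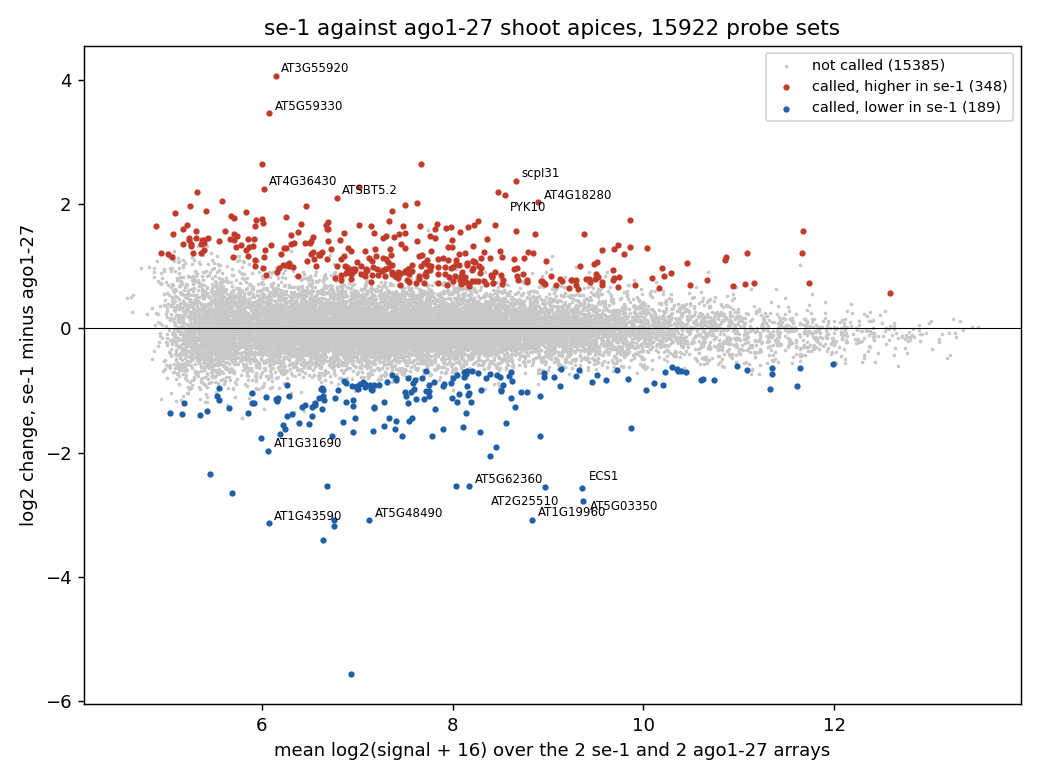
Log2 change, se-1 minus ago1-27, of each of the 15922 tested probe sets (vertical axis) against its mean log2(signal + 16) over the 4 arrays (horizontal axis), with the 348 called higher in se-1 in red and the 189 called lower in blue. At the extremes, 250476_at, with no listed gene, was at least 35.5-fold lower in se-1 and AT3G55920 at least 9.99-fold higher, and since each was within background in 1 genotype, their plotted positions depend on the pseudocount.

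None of the tested genes of microRNA processing passed the test. All 8 tested members of the processing list (of 39 names, 8 with a listed probe set) had log2 changes between -0.36 and 0.18, and 0 were called by limma, where 2.92% of all genes were, so that a count of 0 among 8 is near that share. All 8 had an unadjusted p above 0.05 as well. SE gave 117 and 117 in se-1 apices, against 140.3 and 169 in ago1-27 apices, with 128 and 135 in Col-0. The log2 change was -0.36 (SE of the fit 0.20) with adjusted p = 0.402, so the SE transcript does not check the se-1 label, and the data do not show whether the probe set lies in the changed part of the gene. The other members were the spliceosome-associated ubiquitin ligases MAC3A (0.18) and MAC3B (-0.26), DDL, a phosphothreonine-binding partner of DCL1 (-0.24), the RNA-binding protein TGH (0.18), SIC (-0.18), and the RNA export subunits THO1 (-0.09) and TEX1 (0.16).

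In the list of microRNA action and turnover, AGO7 and SQN were tested and neither was called or had an unadjusted p under 0.05. AGO7, the Argonaute that binds miR390 in the ta-siRNA pathway, gave 69.9 and 98.8 in se-1 apices and 82.1 and 66.4 in ago1-27 apices, which overlap. SQN, a cyclophilin that promotes AGO1 activity, gave 45.6 and 76.2 in se-1 apices and 89.1 and 32.6 in ago1-27 apices, which also overlap, and 1 ago1-27 array was within background. The log2 changes were 0.14 for AGO7 and 0.08 for SQN. AGO1, DCL1 and HYL1 have no listed probe set and were not analysed here.

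In the list of microRNA targets, the members that passed the test were higher in se-1 than in ago1-27. Of 123 names in the target list, 21 had a listed probe set and 15 were tested. Of the 15, 5 were called higher in se-1 (33.3%, where 1.87% of all genes were) and 0 were called lower by limma. At an unadjusted p under 0.05, 6 were higher and 2 lower, where 2508 of all 15922 probe sets passed in either direction. The median fitted log2 change of the 15 was 0.50, and 11 were above 0 (73.3%, against 48.3% of all genes). That median is the value of SNZ, which was within background on both ago1-27 arrays, and over the other 14 it was 0.51. The list was chosen with results of these data known, and 3 of the 5 are close relatives, the jacalin-related lectin genes JAL22, JAL33 and JAL34, which may share array signal and are listed as members of a family that holds targets, so that whether they are targets themselves is not settled. Without the lectin genes, 2 of 12 were called and the median was 0.30, or 0.13 over the 11 other than SNZ.

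JAL22 gave 208 and 220.4 in se-1 apices, against 69.4 and 46.0 in ago1-27 apices. JAL33 gave 242 and 226 in se-1 apices, against 69.3 and 58.7 in ago1-27 apices, and JAL34 gave 139 and 178 in se-1 apices, against 63.9 and 59.5 in ago1-27 apices. Both se-1 arrays exceeded both ago1-27 arrays for each, and both Col-0 arrays lay above the se-1 arrays, at 396 and 342 for JAL22, 321 and 320.0 for JAL33 and 263 and 221 for JAL34. Log2 changes were 1.66 (SE of the fit 0.20, adjusted p = 0.000179), 1.65 (0.18, 9.13e-05) and 1.16 (0.19, 0.00296) in that order. Jacalin-related lectins bind sugars, and the family holds targets of miR842 and miR846 as well as lectins that join the PYK10 complex of endoplasmic reticulum (ER) bodies. Whether JAL22, JAL33 or JAL34 is cut by a microRNA was not tested here. The fourth tested lectin of the family, JAL23, gave 421 and 393 in se-1 apices and 230.1 and 315 in ago1-27 apices, with a log2 change of 0.57 that was not called (adjusted p = 0.268).

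LCR and ARPN were the other called members of the target list. LCR, a leaf-shape F-box gene targeted by miR394, gave 436 and 502 in se-1 apices, against 244 and 288 in ago1-27 apices, with 286 and 323 in Col-0. ARPN, the plantacyanin gene targeted by the copper-responsive miR408, gave 1709 and 1910 in se-1 apices, against 1118 and 1108 in ago1-27 apices, with 1503 and 1357 in Col-0. The groups did not overlap at either gene, as at all 537 called probe sets. By genotype means, se-1 was the highest and ago1-27 the lowest for both genes, although the ago1-27 and Col-0 arrays overlapped at LCR. Log2 changes were 0.78 for LCR (SE of the fit 0.18, adjusted p = 0.0233) and 0.69 for ARPN (0.16, 0.0305). Both calls ended with only the se-1 and ago1-27 arrays in the fit (adjusted p = 0.0870 for LCR and 0.0811 for ARPN), and without a trend in the moderation (0.0543 for LCR and 0.100 for ARPN). That of ARPN also ended when dim probe sets were kept (0.0762). Both ended when single arrays were left out. LCR had adjusted p between 0.0611 and 0.168 without se-1 replicate 1, se-1 replicate 2 or ago1-27 replicate 1, and ARPN between 0.0661 and 0.189 whichever 1 of the 4 arrays was left out.

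**Figure D2:**
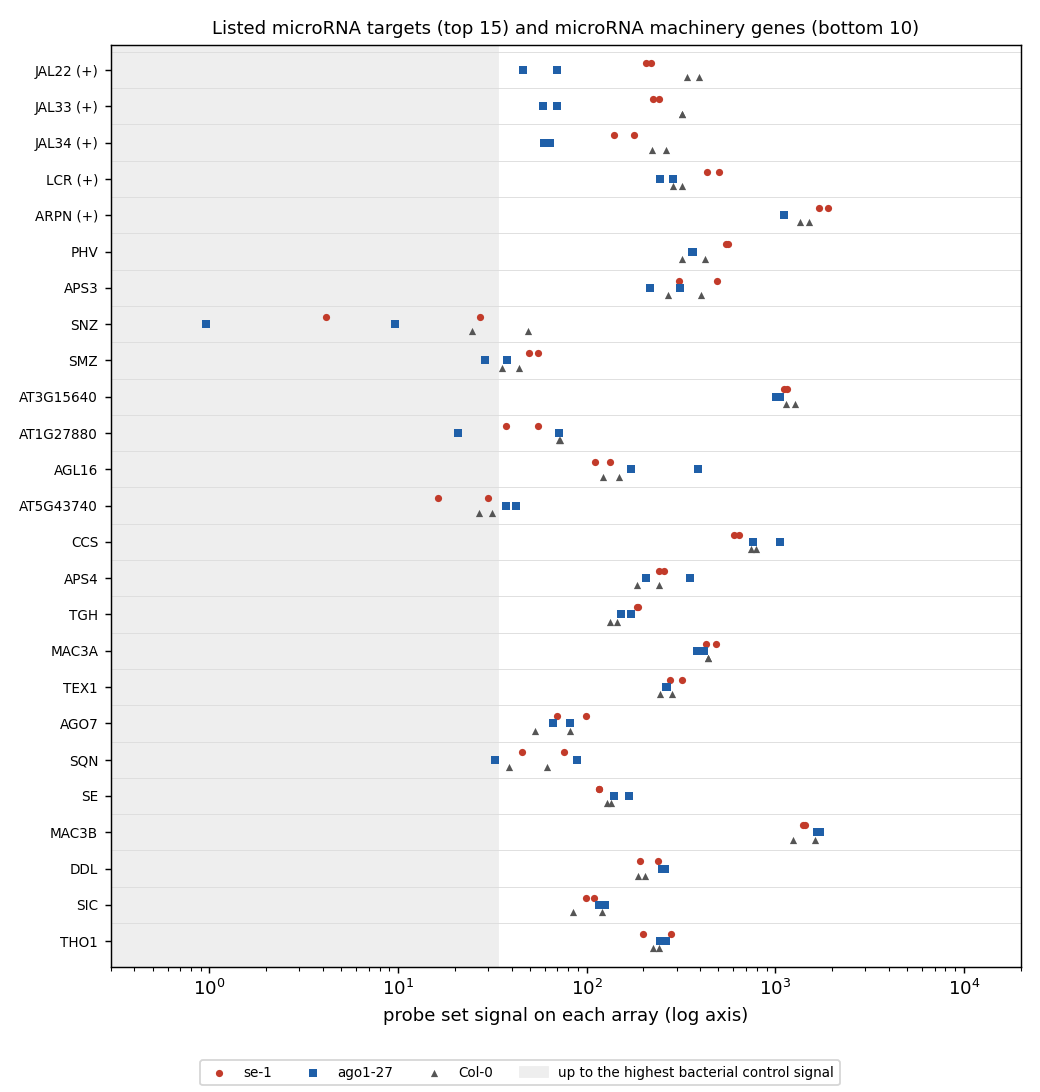
Signal on each array (horizontal log axis) of the 15 tested members of the microRNA target list and, below them, the 10 tested machinery genes, with se-1 as red circles, ago1-27 as blue squares and Col-0 as grey triangles; (+) marks genes called higher in se-1. The called genes JAL22, JAL33, JAL34, LCR and ARPN separate se-1 from ago1-27, and for SE both genotypes lie between 117 and 169.

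The other 10 tested members of the list did not pass the test, and they pointed both ways. AGL16, a MADS-box gene targeted by miR824, gave 111 and 133 in se-1 apices, against 391 and 173 in ago1-27 apices and 148 and 122 in Col-0. Its log2 change of -1.01 had adjusted p = 0.0610, and it was called without ago1-27 replicate 2 (adjusted p = 0.00272). With 1 array left out at a time the log2 change lay between -1.57 and -0.46. CCS, the copper chaperone of superoxide dismutase and a miR398 target, gave 642 and 608 in se-1 apices and 765 and 1063 in ago1-27 apices (log2 change -0.52, adjusted p = 0.171). PHV, a leaf polarity factor targeted by miR165 and miR166, gave 551 and 561 in se-1 apices and 365 and 362 in ago1-27 apices, with a log2 change of 0.59 and adjusted p = 0.182. The sulphate assimilation genes APS3 and APS4, targets of miR395, had log2 changes of 0.55 and -0.12, and the AP2-type floral repressor SMZ, a target of miR172, had 0.47. Its relative SNZ was within background on both ago1-27 arrays and on 1 se-1 array, so no fold is given for it. AT5G43740 (-0.53), AT1G27880 (0.12) and AT3G15640 (0.13) complete the list.

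Some listed genes of the pathway of trans-acting siRNAs, which need both microRNA processing and an Argonaute, were also tested. The tested members go by locus numbers only, and ARF2, ARF3, ARF4 and the listed MYB and HTT genes were not among them. The list held ta-siRNA pathway genes and targets, of which 8 of 43 names were tested, and 0 were called by limma, again near the 2.92% of all genes. Of the 8, 1 had an unadjusted p under 0.05, and log2 changes ran from -0.12 to 0.58 with a median of 0.13, or 0.02 over the 6 with neither mutant within background on both arrays. AT1G63150 was the most different, with 63.9 and 71.1 in se-1 apices and 39.2 and 40.8 in ago1-27 apices (log2 change 0.58, adjusted p = 0.217). The groups did not overlap there, as for 43.3% of all probe sets. AT1G12620 gave 17.1 and 32.8 in se-1 apices and 16.9 and 15.3 in ago1-27 apices, within background on 3 of these 4 arrays.

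The largest fitted differences lay outside those lists, in genes that were near background in one mutant. AT3G55920 gave 287 and 259.7 in se-1 apices, against 1.42 and 1.23 in ago1-27 apices. AT5G59330 gave 190.4 and 228 in se-1 apices, against 3.82 and 4.99 in ago1-27 apices. Both ago1-27 arrays were within background for each gene, while Col-0 gave 317 and 266 for AT3G55920 and 482 and 430.0 for AT5G59330. AT3G55920 was at least 9.99-fold higher in se-1 (adjusted p = 9.66e-09), and AT5G59330 was at least 7.62-fold higher (5.14e-07). In a bulk sample of this kind, fewer cells of a type and less RNA per cell cannot be told apart. No cause of these low signals was tested, including differences between the lines other than the ago1-27 allele. The gene table used here gives neither gene a name.

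Other genes higher in se-1 had measurable signal in both mutants. The serine carboxypeptidase-like gene scpl31 gave 743 and 1109.5 in se-1 apices, against 171 and 153 in ago1-27 apices and 309 and 311 in Col-0. Its log2 change was 2.38 (SE of the fit 0.19, adjusted p = 4.89e-06). ATSBT5.2, which encodes a subtilisin-like protease, gave 238 and 189 in se-1 apices, against 28.0 and 48.9 in ago1-27 apices and 46.0 and 63.3 in Col-0 (log2 change 2.09). AT4G18280 gave 939 and 954 in se-1 apices, against 216 and 223 in ago1-27 apices and 264 and 280.1 in Col-0 (log2 change 2.03, SE of the fit 0.16). For these 3 genes the Col-0 mean lay between those of the 2 mutants, nearer to ago1-27, and the se-1 p35S::MIR156 arrays lay between se-1 and Col-0.

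The remaining large rises in se-1 were smaller or rested on dimmer signals. AT4G36430 had a log2 change of 2.24, and AT5G52790 one of 1.76, each with 1 ago1-27 array within background, so that the values depend on the pseudocount. The same limit holds for AT5G24240 and AT5G19110, given below. AT5G40020 was at least 2.40-fold higher in se-1, at 67.4 and 63.9, against 4.45 and 7.98 in ago1-27 apices. The calls of AT1G19530 (log2 change 1.89), AT5G24240 (1.87) and AT5G19110 (1.80) rested on single arrays. Without se-1 replicate 2 their adjusted p was 0.317, 0.0648 and 0.0691, and the log2 change of AT1G19530 was 1.17. Without ago1-27 replicate 2 the calls of AT1G19530 (adjusted p = 0.268) and AT5G19110 (0.103) ended too.

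Genes lower in se-1 reached larger signals in ago1-27. AT1G19960 gave 177 and 111 in se-1 apices, against 1279 and 1342 in ago1-27 apices and 464 and 576 in Col-0. AT5G48490 gave 43.5 and 22.6 in se-1 apices, against 358 and 430.2 in ago1-27 apices and 158 and 209 in Col-0. AT5G62360 gave 87.2 and 123 in se-1 apices, against 727 and 636 in ago1-27 apices and 514 and 343 in Col-0. At each of these genes se-1 was below Col-0 and ago1-27 above it, with no overlap between the mutants. Log2 changes were -3.08 (SE of the fit 0.25, adjusted p = 4.89e-06), -3.09 (0.26, 4.90e-06) and -2.54 (0.22, 5.90e-06) in that order, and the second had 1 se-1 array within background.

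ECS1, which encodes a small cell wall protein, gave 255 and 252 in se-1 apices, against 2086 and 1188 in ago1-27 apices and 751 and 1309.9 in Col-0. Its log2 change was -2.56 (SE of the fit 0.28, adjusted p = 9.13e-05). AT2G25510 gave 181 and 203 in se-1 apices, against 1751 and 822 in ago1-27 apices and 1017 and 789 in Col-0, with a log2 change of -2.55. The se-1 p35S::MIR156 arrays lay above both se-1 arrays, at 1371 and 885 for ECS1 and 678 and 699 for AT2G25510. For both genes the ago1-27 arrays overlapped the Col-0 arrays, and se-1 alone was low among se-1, ago1-27 and Col-0. AT5G03350 showed the other arrangement, with 206 and 271 in se-1 apices, against 1573 and 1873 in ago1-27 apices and 458 and 276 in Col-0. Its log2 change was -2.78 (SE of the fit 0.24, adjusted p = 5.90e-06), and it was the called gene of the salicylic acid and defence list, of which 5 of 40 names were tested (20.0%, against 1.05% of all genes called lower). That list was chosen with results of these data known, so the share is no support for a change of the list. The other tested members were not called, and the list median was -0.19.

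**Figure D3:**
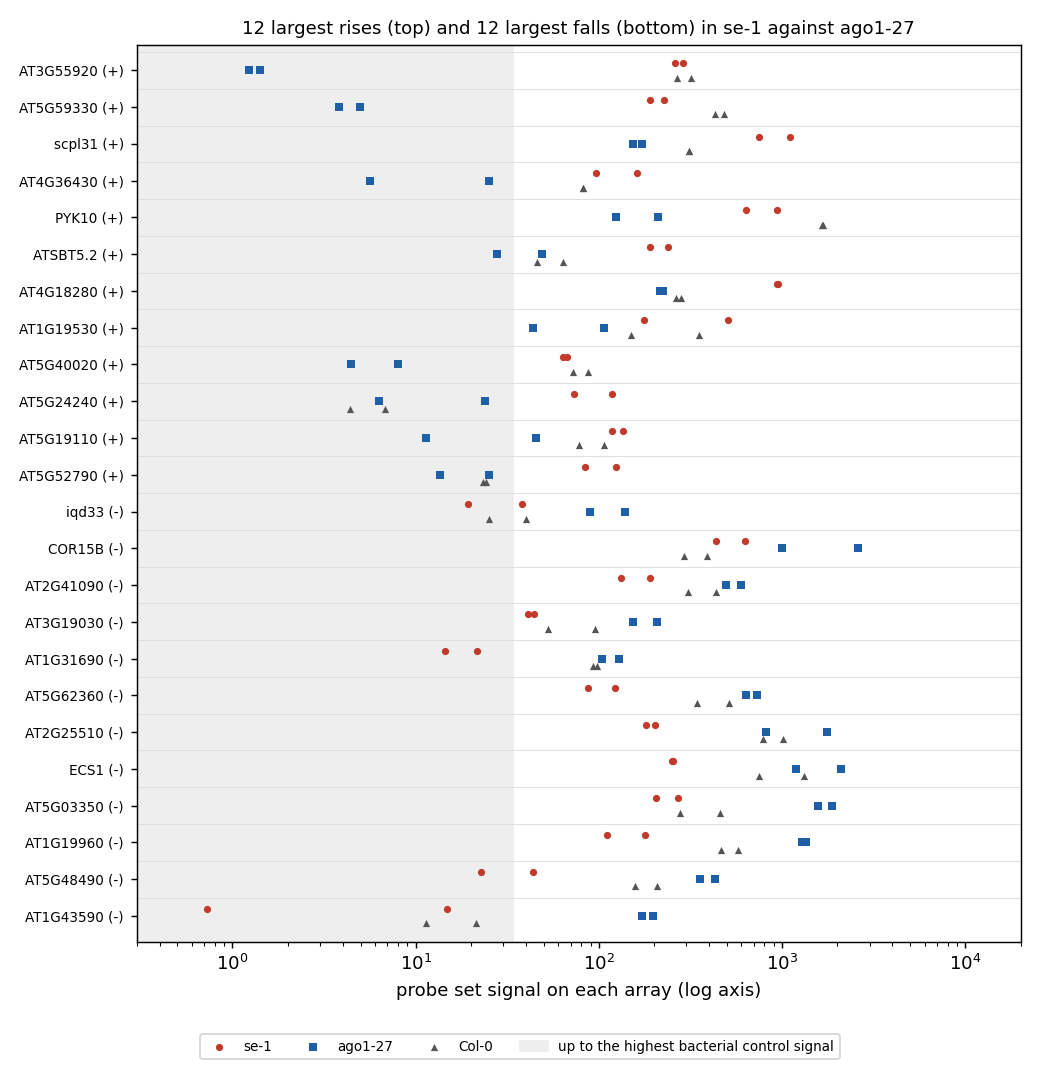
Signal on each array (horizontal log axis) of the 12 largest called rises (top) and 12 largest called falls (bottom) in se-1 among probe sets with 1 listed gene, with se-1 as red circles, ago1-27 as blue squares and Col-0 as grey triangles. The grey band ends at 34.1, the highest bacterial control signal of these genotypes. Both ago1-27 arrays of AT3G55920, AT5G59330, AT5G40020, AT4G36430, AT5G24240 and AT5G52790 lie in it, as do both se-1 arrays of AT1G43590 and AT1G31690. Within background is set for each array, and 1 of these arrays exceeds its own limit at AT4G36430, AT5G24240, AT5G52790 and AT1G31690.

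The pseudogene AT1G43590 gave 14.8 and 0.726 in se-1 apices, against 198 and 171 in ago1-27 apices and 11.3 and 21.5 in Col-0, and was at least 7.90-fold lower in se-1. AT1G31690 (log2 change -1.97), AT3G19030 (-1.74) and AT2G41090 (-1.67) were called too, with adjusted p of 0.000163, 0.000925 and 0.000395. For AT1G31690, 1 se-1 array was within background, so that its value depends on the pseudocount. The last of the 12 was iqd33, a member of a family of calmodulin-binding proteins, at 19.2 and 38.0 in se-1 apices, against 139 and 89.3 in ago1-27 apices. Its log2 change of -1.55 (adjusted p = 0.00836) was no longer called without se-1 replicate 1 (adjusted p = 0.0899) or without ago1-27 replicate 1 (0.0686).

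Among probe sets with no listed gene, 250476_at gave 1.91 and 1.64 in se-1 apices, against 856 and 798 in ago1-27 apices and 393 and 288 in Col-0. It was at least 35.5-fold lower in se-1 (adjusted p = 7.76e-10), and both se-1 p35S::MIR156 arrays were within background as well. The probe set 254551_at gave 17.1 and 12.4 in se-1 apices, against 273 and 350 in ago1-27 apices and 508 and 557 in Col-0, and was at least 13.3-fold lower in se-1. In the other direction, 263285_at gave 431 and 567 in se-1 apices, against 55.6 and 77.1 in ago1-27 apices (log2 change 2.64), and 255127_at was at least 5.26-fold higher in se-1.

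ER bodies are compartments of the Brassicaceae that store beta-glucosidases for defence. PYK10, their main beta-glucosidase, was higher in se-1 than in ago1-27 and gave 639 and 933 in se-1 apices, against 211 and 123 in ago1-27 apices, and both mutants were below the Col-0 signals of 1648 and 1678. Its log2 change was 2.15 (SE of the fit 0.25, adjusted p = 0.000144). The list of jasmonate, ER body and glucosinolate genes had 7 tested members of 50 names. PYK10 was called (14.3% of the 7, against 1.87% of all genes). All 7 had positive values, against 48.3% of all genes, and the median was 0.57 against -0.01 for all genes. NAI1, the transcription factor that controls PYK10, gave 105 and 111 in se-1 apices and 53.1 and 63.1 in ago1-27 apices (log2 change 0.75, adjusted p = 0.0714). NAI2, an ER body structural protein, gave 280 and 453 in se-1 apices and 193 and 277 in ago1-27 apices (0.59, adjusted p = 0.192). PYK10 is also the tested member of the root marker list, and the root hair expansins EXPA7 and EXPA18 were among the dim probe sets left out.

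Cold and drought genes moved in both directions. Of the 5 tested members of the abscisic acid (ABA), cold and dehydration list (33 names), COR15B and LTI30 were called lower in se-1 (40%, against 1.05% of all genes) and COR47 higher (20.0%, against 1.87%). COR47, a dehydrin gene, gave 1325 and 1327 in se-1 apices, against 556 and 587 in ago1-27 apices and 1027 and 1049 in Col-0, a log2 change of 1.19 (SE of the fit 0.16, adjusted p = 0.000419). LTI30, another dehydrin gene, gave 155 and 157 in se-1 apices, against 438 and 295 in ago1-27 apices and 263 and 195 in Col-0 (log2 change -1.12, adjusted p = 0.0103). COR15B, which encodes a chloroplast protein of cold acclimation, gave 628 and 434 in se-1 apices, against 2596 and 1002 in ago1-27 apices and 389 and 292 in Col-0 (log2 change -1.60, adjusted p = 0.0108). COR15A, its paralog, gave 2044 and 1420 in se-1 apices and 1725 and 2226 in ago1-27 apices, which overlap. The call of LTI30 ended without se-1 replicate 1, se-1 replicate 2 or ago1-27 replicate 1 (adjusted p between 0.0592 and 0.0751). That of COR15B ended without se-1 replicate 2 or ago1-27 replicate 1 (up to 0.101), and its log2 change was -0.92 without ago1-27 replicate 1.

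In the list of nuclear photosynthesis genes, 1 tested member passed the test and was lower in se-1. All 7 tested genes of the list (41 names) had negative log2 changes, with a median of -0.49, whereas 48.3% of all genes were above 0. PSAN was called (14.3%, against 1.05% of all genes), with 6 lower at an unadjusted p under 0.05. PSAN, a photosystem I subunit, gave 1291 and 1249 in se-1 apices, against 2067 and 2474 in ago1-27 apices and 1984 and 1825 in Col-0 (log2 change -0.82, adjusted p = 0.0156). LHCB4.2, an antenna protein of photosystem II, gave 1717 and 1913 in se-1 apices and 2297 and 4025 in ago1-27 apices (-0.74, adjusted p = 0.0728). LHCB4.1 had -0.49 and RCA, the activase of the carbon-fixing enzyme, had -0.59. PSBY, a small photosystem II protein, was called at -0.97 (adjusted p = 0.0359). It was the called member of the 5 tested genes with chlorophyll-binding and photosystem names (20.0%, against 1.05% of all genes). These genes also mark expanded leaf tissue, so that a different share of leaf in the dissected apices and a different level per cell cannot be told apart. The call of PSAN ended without se-1 replicate 1, se-1 replicate 2 or ago1-27 replicate 2 (adjusted p between 0.0684 and 0.0992), and that of PSBY without se-1 replicate 1 or ago1-27 replicate 2 (0.270 and 0.263).

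Among genes encoded in the chloroplast the called share was close to that of all genes. Of 67 tested chloroplast-encoded genes, 1 was called lower (1.49%, near the 1.05% of all genes) and 0 higher by limma, with 7 lower and 3 higher at an unadjusted p under 0.05. Of all 15922 probe sets, 2508 had an unadjusted p under 0.05. The median log2 change of the 67 was -0.14, and 19 of them (28.4%) were above 0, against 48.3% of all genes. The called gene, ndhG, a subunit of the chloroplast NADH dehydrogenase-like complex, gave 56.0 and 37.3 in se-1 apices, against 121 and 133 in ago1-27 apices and 50.2 and 16.1 in Col-0. Its log2 change was -1.21 (adjusted p = 0.0445), and the call ended whichever 1 of the 4 arrays was left out (adjusted p between 0.0734 and 0.247).

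**Figure D4:**
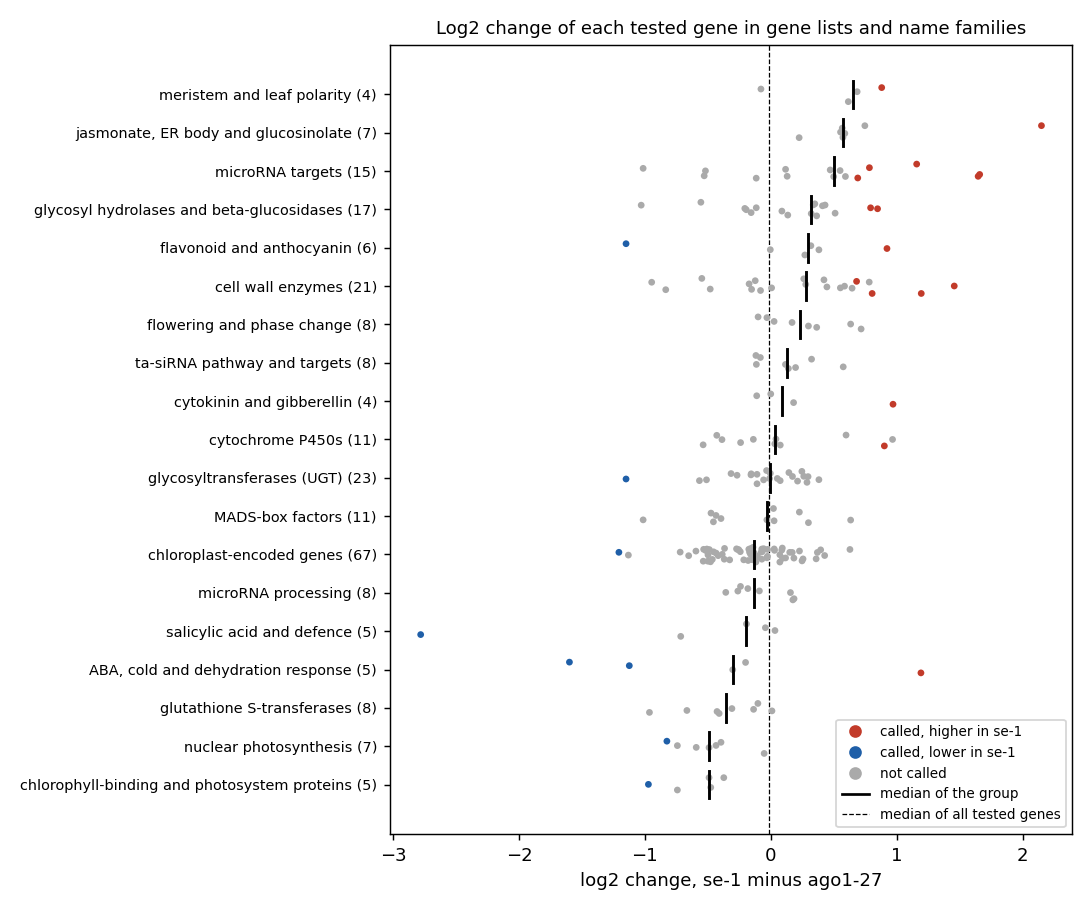
Log2 change, se-1 minus ago1-27, of each tested gene (points) in gene lists and name families, with the number of tested genes in brackets, the group median as a black bar and the median of all tested genes, -0.01, as a dashed line. All 7 nuclear photosynthesis genes lie below 0 and all 7 genes of the jasmonate, ER body and glucosinolate list lie above it; red and blue mark called genes.

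The cell wall enzymes that passed the test were all higher in se-1. Of 21 tested genes of expansin, xyloglucan and pectin enzyme names, 4 were higher in se-1 (19.0%, against 1.87% of all genes) and 0 lower by limma, with 6 higher and 2 lower at an unadjusted p under 0.05. The median was 0.28, or 0.35 over the 18 with neither mutant within background on both arrays. EXPA4, an expansin that loosens cell walls, gave 2113 and 2882 in se-1 apices, against 1543 and 1523 in ago1-27 apices (log2 change 0.68). XTH32, which cuts and rejoins xyloglucan, gave 1024 and 1130.2 in se-1 apices, against 577 and 643 in ago1-27 apices (0.81). The expansin-like genes EXLA1 and EXLA3 were dim, at 94.3 and 96.1 for EXLA1 in se-1 apices against 19.6 and 50.4 in ago1-27 apices, and EXLA3 was at least 2.02-fold higher in se-1. The cellulase-type genes GH9B8 (0.85) and GH9C2 (0.79) were the called members among 17 glycosyl hydrolases (11.8%, against 1.87% of all genes). These calls were not stable. That of EXPA4 ended without se-1 replicate 2 or one or the other ago1-27 array, those of XTH32 and GH9B8 whichever 1 of the 4 was left out, that of GH9C2 without one or the other se-1 array or ago1-27 replicate 2, that of EXLA1 without one or the other se-1 array or ago1-27 replicate 1, and that of EXLA3 without se-1 replicate 2 or ago1-27 replicate 1, with adjusted p between 0.0595 for GH9C2 and 0.325 for EXPA4.

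Single genes of growth and pigment lists were called as well. Of all genes, 1.87% were called higher and 1.05% lower. Called higher were 1 of 4 tested genes of the cytokinin and gibberellin list (25.0%) and 1 of 4 of the meristem and leaf polarity list (25.0%). Of 11 tested cytochrome P450s, 1 was called higher (9.09%). Of 6 tested flavonoid genes, 1 was called higher and 1 lower (16.7% each). ARR15, a cytokinin-induced response regulator, gave 346 and 460.1 in se-1 apices, against 211 and 181 in ago1-27 apices and 580.4 and 509 in Col-0 (log2 change 0.97, adjusted p = 0.00933). NUB, a zinc-finger gene of lateral organ growth, gave 128 and 174 in se-1 apices, against 89.0 and 61.3 in ago1-27 apices (0.88, adjusted p = 0.0422). CYP78A9, a cytochrome P450 of organ size control, had a log2 change of 0.90. In the flavonoid list, UF3GT, an anthocyanin glycosyltransferase gene, gave 72.5 and 61.9 in se-1 apices, against 132 and 213 in ago1-27 apices and 216 and 295 in Col-0 (-1.15), whereas AT5MAT, an anthocyanin malonyltransferase gene, gave 198 and 149 in se-1 apices, against 74.1 and 93.1 in ago1-27 apices and 107 and 123 in Col-0 (0.92). The calls of ARR15 and UF3GT ended without se-1 replicate 2 or ago1-27 replicate 2, that of AT5MAT without se-1 replicate 1 or ago1-27 replicate 1, that of NUB without one or the other se-1 array or ago1-27 replicate 2, and that of CYP78A9 without one or the other se-1 array or ago1-27 replicate 1. Adjusted p in these fits lay between 0.0593 and 0.283.

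Further genes with a name were picked from the calls after their values had been seen. In all, 49 called probe sets have a gene with a name, 28 higher and 21 lower in se-1. RBL (locus AT3G55510), which acts in floral meristem determinacy, gave 620.3 and 623 in se-1 apices, against 329.5 and 230.0 in ago1-27 apices and 274 and 341 in Col-0 (log2 change 1.13). RHF1A, a ubiquitin ligase gene of gamete development, gave 212 and 208 in se-1 apices, against 64.5 and 92.0 in ago1-27 apices and 61.4 and 92.1 in Col-0 (1.28). PSF2, a subunit of the DNA replication complex GINS, gave 399 and 334 in se-1 apices, against 151 and 194 in ago1-27 apices (1.03). For RHF1A the ago1-27 and Col-0 arrays overlapped and se-1 stood above both. SIM, an inhibitor of cyclin-dependent kinases, was at 1.02 and QQT2, needed for the first embryonic divisions, at 1.01. The calls of PSF2 and QQT2 ended without se-1 replicate 1 (adjusted p = 0.0803 and 0.0653) and that of SIM without se-1 replicate 2 or ago1-27 replicate 2 (up to 0.173).

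Named genes lower in se-1, also picked after their values had been seen, included LrgB, a plastid glycolate and glycerate transporter, at 115 and 117 in se-1 apices, against 238 and 320 in ago1-27 apices and 105 and 133 in Col-0 (log2 change -1.14). NdhL, a subunit of the complex that also holds ndhG, gave 50.7 and 54.5 in se-1 apices, against 127 and 133 in ago1-27 apices and 84.7 and 85.5 in Col-0 (-1.09). For LrgB, se-1 lay within the Col-0 arrays, whereas for NdhL it lay below them. Others were LPA19, an assembly factor of photosystem II (-0.97), CHLM, a chlorophyll synthesis enzyme (-0.67), and LIL3:1, a light-harvesting-like protein (-0.79). STOMAGEN, a peptide that promotes stomata, gave 97.4 and 127 in se-1 apices, against 270.0 and 218 in ago1-27 apices (-1.02). The call of LrgB ended without ago1-27 replicate 2 (adjusted p = 0.05001) and that of NdhL without se-1 replicate 1 (0.0541). The call of LPA19 ended without se-1 replicate 1 or one or the other ago1-27 array, that of CHLM without one or the other se-1 array or ago1-27 replicate 2, that of LIL3:1 without se-1 replicate 2 or ago1-27 replicate 1, and that of STOMAGEN whichever 1 of the 4 was left out, with adjusted p between 0.0560 and 0.213.

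**Figure D5:**
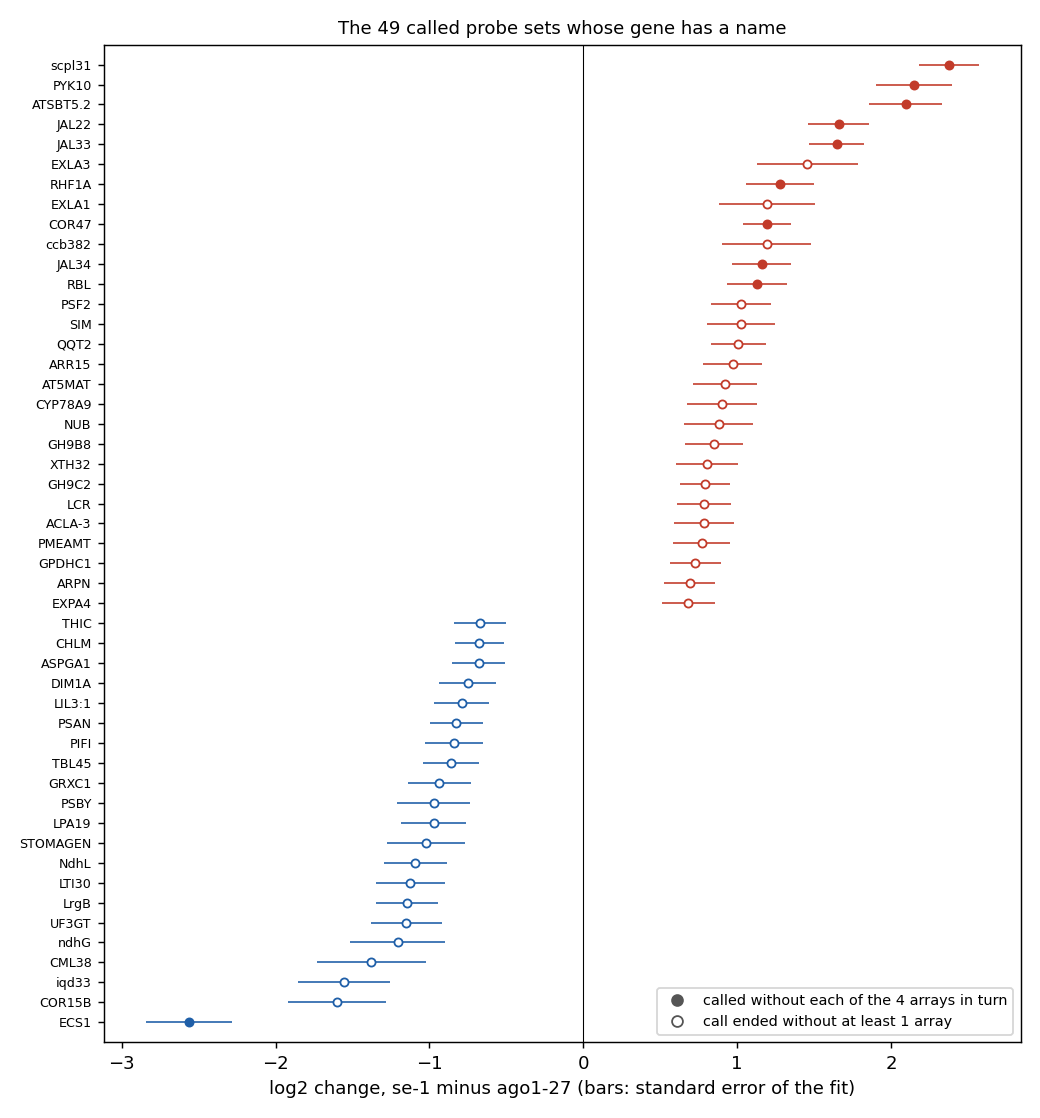
Log2 change, se-1 minus ago1-27, of the 49 called probe sets whose gene has a name (horizontal axis; bars are the standard error of the fit), with genes higher in se-1 in red and lower in blue. Filled points were called without each of the 4 arrays in turn and open points were not; ECS1 is the filled point among the genes lower in se-1.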

How the data were processed

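Biotin-labelled RNA was made from total apex RNA with 1 round of amplification and hybridized to Affymetrix ATH1 arrays, per the labels' protocols. Each deposited value is the signal of a probe set, an intensity on a linear scale. The submitters' processing notes name GCOS with no version, and the signal algorithm is not given in the sources used here. The authors scaled each array, since each of the 8 had a trimmed mean of 200.02 over its 22810 probe sets. Samples were grouped by genotype label.

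After removal of the 64 control probe sets and of the dimmest 30%, ranked by their mean over the 8 arrays, log2(signal + 16) was fitted with 1 mean per genotype over all 8 arrays (limma 3.58.1 in R 4.3.3, lmFit and eBayes with a trend, two-sided, 4 residual and 11.27 prior degrees of freedom). Where all arrays of a genotype were within background at a called probe set, the text gives a lower bound of the fold. This is the other genotype's geometric mean over that of the highest bacterial signals. The number of arrays limits the precision. Of 14016 probe sets in the annotation, 13513 have 1 gene, 13436 of them in the TAIR10.1 gene table, and 503 have several. Genes named are the 12 largest called rises and falls, all tested microRNA list members, at most 4 called members of other lists and families, and exceptions stated. Of the tested ta-siRNA list members, only AT1G63150 and AT1G12620 are named. Members of other lists and families that were not called, such as NAI1, NAI2, JAL23, COR15A, LHCB4.2, GSTU16, AGL18 and LD, were picked outside this rule. Related transcripts can share a probe set. The members and lists were chosen with earlier results of these data known. Arrays were not paired by replicate number in the main fit. Deviations of same-numbered se-1 and ago1-27 arrays correlated at -0.05, and those of all genotype pairs between -0.21 and 0.11. The highest bacterial signal was larger on replicate 2 than on replicate 1 in every genotype (18.0 and 30.2 in se-1, 22.0 and 34.1 in ago1-27). Whether replicate numbers mark batches was not tested. On simulated data for this comparison (15922 probe sets, 200 changed, 10 draws) the fit found 74.3% of the changes of 2-fold and 99.7% of those of 4-fold, and 5.99% of its calls were false. The simulated noise was normal, drawn separately for each probe set and array, with the moderated spread of this same fit. Variation shared across probe sets was left out, so these shares do not measure the error of the real calls. The 14 alternatives were other pseudocounts, filters, scalings, arrays in the fit, moderations, a replicate block and each array left out.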

Additional observations from a re-analysis of the deposited data

How the results depend on the processing

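The 537 calls (348 higher and 189 lower in se-1) became 249 (165 and 84) when dim probe sets were kept and 263 (167 and 96) with only the se-1 and ago1-27 arrays in the fit. Leaving out 1 array at a time gave 257 to 538 calls, 166 to 342 higher and 84 to 196 lower. The se-1 against Col-0 count of 173 became 68 with those kept and 89 without one or the other se-1 array. The ago1-27 against Col-0 count of 265 became 98 with those kept and 148 to 337 without 1 ago1-27 array. These Col-0 counts were added after the data were seen and could not be fitted with only the 2 mutants. A replicate block gave 518 calls and, of the genes named, called AGL16 (adjusted p = 0.0365) and ended the calls of ASPGA1 and THIC. Other scalings, pseudocounts and moderations gave 386 to 549 calls, and leaving out the lowest 50% gave 419. Of 71 called genes or probe sets checked one by one, 22 were called under every alternative and 29 without each of the 4 arrays in turn. None of the 71 changed sign, but the arrays of the 2 genotypes did not overlap at any of the 537 calls. Leaving out an array or changing the pseudocount, filter or moderation therefore could not change a sign. Of all 537 calls, 141 were called without each array in turn, 222 after se-1 replicate 1 was left out and 223 after se-1 replicate 2 was, and 331 after ago1-27 replicate 1 was left out and 279 after ago1-27 replicate 2 was. The cause of these losses was not tested. With 2 arrays per genotype, changes of 2-fold were not all detectable, and signals within background give bounds only.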

Other observations

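Of all genes tested, 2.92% were called, 1.05% lower in se-1, and 48.3% had a positive value. Of all 15922 probe sets, 2508 had an unadjusted p under 0.05. Of 23 tested glycosyltransferase (UGT) genes, UF3GT was the called member (4.35%, lower in se-1), and the median log2 change was -0.01. Of 8 glutathione S-transferase genes, which join glutathione to reactive compounds, 0 were called by limma, 2 were lower at an unadjusted p under 0.05 and 1 had a positive value, with a median of -0.36, or -0.31 over the 7 other than GSTF4, which was within background on both arrays of 1 mutant, and the lowest value at GSTU16 (-0.96). Of 11 MADS-box genes, 0 were called by limma, 1 was higher and 1 lower at an unadjusted p under 0.05, and values ran from -1.01 for AGL16 to 0.63 for AGL18, a floral repressor. Of the 8 tested genes of flowering and phase change, 0 were called by limma and 2 were higher at an unadjusted p under 0.05. LD, a gene of the autonomous flowering pathway, had a log2 change of 0.72, and FD, the partner of the florigen, had 0.36. The 3 tested genes of splicing and RNA binding had values between -0.08 and -0.04.

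Calls lay on all 5 chromosomes. Of the 200 tested genes nearest to SE in gene order on chromosome 2, 7 were called (3.5%), and the same count was found around AGO1 on chromosome 1, against 2.92% of all genes. Of all genes, 1.87% were called higher and 1.05% lower in se-1. Chromosome 1 had 39 genes higher and 25 lower of 2272 tested, and chromosome 2 had 26 and 15 of 1249. Chromosome 3 had 44 higher and 14 lower of 1787, chromosome 4 had 20 and 10 of 1274, and chromosome 5 had 32 and 27 of 2050. Differences between chromosomes were not tested.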
